A study of Mus musculus with 23 samples.

Results

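The 39 genes described here carry out or start DNA replication. They license and fire origins, copy DNA, supply nucleotides, run the switch from G1 to S phase, or package new DNA. They were taken as a list of symbols and found in the deposited count files through a GRCm38 annotation. All 39 were present among 38293 genes per file, and all 39 were among the 16087 genes with enough counts to be tested.

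RNA was measured in 23 libraries of mouse cortical astrocytes cultured from the neocortex at postnatal day 3. The mice had a hybrid background, 129/OLa+129/Sv+ together with BALB/c+C57BL/6, with no engineered allele named in the labels. Cultures grew for 7 days in medium with 10% serum deprived of thyroid hormone, then stood for 24 h in 0.1% of such serum, so every group was thyroid hormone-deprived and at low serum before treatment. The 6 groups were 24 h T3 (3 libraries), 24 h control, 6 h CHX plus T3, 6 h CHX, 6 h T3 and 6 h control (4 libraries each). T3, triiodothyronine, the active thyroid hormone, was given at 10 nM. The agent labelled CHX, taken to be cycloheximide, which blocks translation, was given at 8 µg/ml, 30 min before T3 where T3 followed. Whether replicates were separate cultures is not in the labels, so each p-value covers only the spread among these libraries, and that spread may be technical.

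Replication is prepared in G1, when the origin recognition complex with Cdc6 and Cdt1 loads the MCM helicase onto DNA. Cyclin E and its kinase, together with E2F transcription factors, push the cell into S phase, where the helicase is activated by Cdc45, GINS and Mcm10. Polymerases then copy the strands, held by the PCNA clamp that RFC loads, while Fen1 and Lig1 finish the lagging strand. Many of these genes are known E2F targets and are transcribed mainly in cells that cycle, and astrocytes from newborn cortex still divide in culture. D-type cyclins, which act before E2F release, respond to serum and have short-lived proteins.

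Promoters of replication genes are known for E2F sites, so the RefSeq windows (build GRCm38.p6, 250 bases before to 50 after each start) were searched for the letters TTTCCCGC, TTTGGCGC, TTTCGCGC and TTTGCCGC on both strands. A window was held for 33 of the 39 genes. At least 1 match lay in 15 of these 33 (45.5%), against 704 of 27025 genes with a window (2.60%). The share was also 45.5% (10 of 22) in a list of other G1/S and S phase targets used below, and 27.6% in a list of other replication factors. Shares differed between roles, with 4 of 5 MCM helicase genes, 3 of 4 origin licensing genes and 0 of 4 nucleotide supply genes holding a match. The letters CCAAT, searched the same way, were in the windows of 20 of 33 genes (60.6%), against 41.1% of all, and overlapped an E2F match in 1 window. CCAAT was in 63.6% of the other G1/S and S phase targets, 48.3% of the other replication factors and 76% of mitosis and G2/M genes with a window. Windows are shown for 5 genes that the results below turn on, 5′ to 3′ on the gene's strand, with the E2F letters in capitals. They are Mcm6 (chr1:128359656-128359955, minus strand, 3 matches, the first 2 overlapping), Mcm3 (chr1:20820263-20820562, minus strand, 2 matches), Rfc3 (chr5:151651159-151651458, minus strand, 2 matches), 1 of the windows of Uhrf1 (chr17:56304063-56304362, plus strand, 1 match) and Mcm10 (chr2:5012742-5013041, minus strand, 0 matches).
Mcm6: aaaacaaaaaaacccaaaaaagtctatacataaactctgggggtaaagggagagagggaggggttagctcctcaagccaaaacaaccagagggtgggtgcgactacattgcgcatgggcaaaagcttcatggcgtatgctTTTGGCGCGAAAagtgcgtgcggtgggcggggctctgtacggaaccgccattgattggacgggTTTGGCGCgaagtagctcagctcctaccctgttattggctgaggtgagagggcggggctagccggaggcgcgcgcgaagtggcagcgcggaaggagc
Mcm3: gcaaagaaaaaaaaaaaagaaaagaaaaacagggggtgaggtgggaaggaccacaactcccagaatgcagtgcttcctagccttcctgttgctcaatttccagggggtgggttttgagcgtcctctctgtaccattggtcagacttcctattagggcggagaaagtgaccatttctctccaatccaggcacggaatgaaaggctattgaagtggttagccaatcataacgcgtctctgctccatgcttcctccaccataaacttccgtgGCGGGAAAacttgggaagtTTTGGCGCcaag
Rfc3: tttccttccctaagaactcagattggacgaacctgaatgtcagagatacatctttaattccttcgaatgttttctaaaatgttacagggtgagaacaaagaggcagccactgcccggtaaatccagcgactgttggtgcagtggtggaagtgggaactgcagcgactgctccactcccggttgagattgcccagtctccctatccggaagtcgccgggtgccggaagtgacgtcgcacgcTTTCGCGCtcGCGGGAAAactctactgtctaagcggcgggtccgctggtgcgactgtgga
Uhrf1: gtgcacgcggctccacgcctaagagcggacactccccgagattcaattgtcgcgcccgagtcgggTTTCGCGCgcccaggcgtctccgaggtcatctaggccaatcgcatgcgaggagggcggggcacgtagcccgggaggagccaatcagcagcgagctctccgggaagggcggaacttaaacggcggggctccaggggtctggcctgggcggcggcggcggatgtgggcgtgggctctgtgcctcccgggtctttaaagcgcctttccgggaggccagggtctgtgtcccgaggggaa
Mcm10: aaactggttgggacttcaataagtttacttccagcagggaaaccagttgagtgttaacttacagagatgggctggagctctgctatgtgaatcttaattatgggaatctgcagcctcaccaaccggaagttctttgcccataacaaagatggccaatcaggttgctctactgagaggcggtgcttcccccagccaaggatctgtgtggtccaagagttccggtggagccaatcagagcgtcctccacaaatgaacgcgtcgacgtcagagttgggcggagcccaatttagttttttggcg
A match describes these letters only, and no match says only that they are not in the window. The Mcm10 window ends in tttggcg, which is TTTGGCGC without its last letter, so its lack of a match depends on the window's edge.

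Libraries held 13843040 to 22997873 gene counts, and the 39 genes had from 11 counts (Orc1) to 3820 counts (Rrm1) in a library. The T3 targets Hr and Klf9 checked the labels and rose in every T3 comparison, Hr by 3.73 log2 at 24 h, 2.85 log2 at 6 h with CHX and 4.26 log2 at 6 h, and Klf9 by 2.12 log2 at 6 h with CHX and 1.79 log2 at 6 h. The list of T3 targets they came from held 3 genes, of which 3 were called higher at 24 h, 2 at 6 h with CHX and 3 at 6 h. Astrocyte markers were all detected, with Gfap at 4562 CPM in 24 h T3 libraries and 4731 CPM in 24 h control libraries. Microglia markers summed to 28.1 to 93.1 CPM per library against 7140 to 11387 CPM for astrocyte markers in the same libraries, while genes also known from other neural cells were present, such as Olig1 at 379 CPM in 24 h T3 and 416 CPM in 24 h control libraries. File names carry a sequencing lane. All 6 h control and 6 h T3 libraries and 6 h CHX replicates 1 to 3 were on lane 5, 24 h T3 replicate 3 was on lane 7, and the others were on lane 6. The library 6 h CHX replicate 4 stood apart, with the 39 genes summing to 1377 CPM against 1540 to 1573 CPM in the other 3 CHX libraries. Levels below are CPM, computed on TMM-scaled library sizes, and fold changes are log2 with the SE of edgeR's fit. In bulk RNA, fewer cells in a cycle phase and less RNA per cell cannot be told apart.

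Per kilobase of exon, levels in 6 h control libraries ran over a wide range. Rrm2, the small subunit of ribonucleotide reductase, was at 39.5 ± 1.66 CPM per kb and Pcna, the sliding clamp, at 37.1 ± 4.18 CPM per kb (SD, n = 4 each), which did not differ beyond their spread. The helicase genes Mcm6 (22.7 ± 0.697 CPM per kb) and Mcm4 (22.6 ± 1.15 CPM per kb) followed, again without a gap beyond the spread. At the low end stood E2f2 (1.85 ± 0.0995), Fen1 (1.62 ± 0.179), Cdc6 (1.56 ± 0.195) and Orc1 (0.723 ± 0.0997), all in CPM per kb with n = 4. The place of Fen1 is uncertain, since 78.8% of its exonic bases lie under Gm10143 on the other strand and the kit marks no strand. The MCM helicase genes lay between 13.2 CPM per kb (Mcm2) and 22.7 CPM per kb (Mcm6), a narrower range than the origin licensing genes, from Orc1 to Cdt1 at 13.9 ± 1.06 CPM per kb.

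After 24 h of T3, most of the 39 genes were lower than in 24 h control libraries by small steps. Of the 39 genes, 7 fell and 0 rose, where 2.68% of all genes tested were called lower and 4.41% higher (7.09% in all). They were Uhrf1, Mcm2, Mcm4, Mcm3, Rrm1, Lig1 and Pole. The median log2 fold change over the 39 was −0.17, against 0.00412 over all genes tested, and 37 of the 39 values were below 0. With the 7 called genes included, 17 of the 39 had an unadjusted p under 0.05, as did 3311 of the 16087 genes tested. The summed level of the 39 genes was 1242 to 1315 CPM in 24 h T3 libraries and 1396 to 1510 CPM in 24 h control libraries, and the groups did not overlap.

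Uhrf1 (ENSMUSG00000001228, GRCm38 chromosome 17, 56303321 to 56323486), which reads hemimethylated DNA behind the fork and recruits the maintenance methyltransferase, was at 28.4, 33.6 and 31.3 CPM in 24 h T3 libraries, against 42.8, 42.0, 43.0 and 40.9 CPM in 24 h control libraries. All T3 libraries lay well below all controls. Its fold change was −0.44 ± 0.07 log2 (adjusted p = 0.000193, edgeR quasi-likelihood test), and it passed in all 17 alternative settings. No other gene of the 39 did so at 24 h.

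The helicase genes moved by similar amounts. Mcm2 was at 79.0, 80.5 and 76.5 CPM with 24 h T3, against 95.2, 89.1, 106 and 94.2 CPM in 24 h controls. Mcm4 was at 49.7, 53.4 and 53.3 CPM with T3, against 62.5, 60.5, 69.3 and 62.0 CPM in controls. Mcm3 was at 70.5, 65.9 and 65.9 CPM with T3, against 77.5, 73.9, 82.5 and 82.9 CPM in controls. For all 3 genes every T3 library was below every control library, and among controls replicate 3 was highest for Mcm2 and Mcm4. Fold changes were −0.29 ± 0.06 log2 for Mcm2 (adjusted p = 0.00448), −0.28 ± 0.06 log2 for Mcm4 (adjusted p = 0.00416) and −0.23 ± 0.06 log2 for Mcm3 (adjusted p = 0.021) in edgeR. The other 3 subunits did not pass, with −0.25 ± 0.08 log2 for Mcm5 (adjusted p = 0.059), −0.19 ± 0.06 log2 for Mcm6 (adjusted p = 0.0574) and −0.16 ± 0.07 log2 for Mcm7 (adjusted p = 0.164) in the same edgeR fit.

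Rrm1, the large subunit of ribonucleotide reductase, was at 152, 156 and 159 CPM in 24 h T3 libraries, against 178, 181, 189 and 189 CPM in 24 h controls. Lig1, the ligase that seals Okazaki fragments, was at 77.3, 74.8 and 78.2 CPM with T3, against 85.1, 85.3, 89.5 and 95.0 CPM in controls. Pole (ENSMUSG00000007080, GRCm38 chromosome 5, 110286306 to 110337474), the catalytic subunit of the leading-strand polymerase epsilon, was at 14.7, 19.3 and 19.4 CPM with T3, against 21.8, 23.2, 27.5 and 23.2 CPM in controls. None of the 3 genes overlapped between the groups, and T3 replicate 1 was lowest for Pole and Rrm1. Their fold changes were −0.24 ± 0.06 log2 for Rrm1 (adjusted p = 0.0108), −0.21 ± 0.05 log2 for Lig1 (adjusted p = 0.0112) and −0.42 ± 0.11 log2 for Pole (adjusted p = 0.0167) in edgeR. Licensing, helicase activation, clamp loading and G1/S regulators had no called gene at 24 h, and the 32 genes that did not pass ran from −0.35 log2 (E2f1) to 0.18 log2 (Fen1). Among origin licensing genes Orc6 was at 0.00 ± 0.08 log2 and Cdc6 at −0.30 ± 0.18 log2, and among regulators E2f1 was at −0.35 ± 0.12 log2 (adjusted p = 0.0723, edgeR). Pcna, at −0.06 ± 0.08 log2, and Fen1, at 0.18 ± 0.20 log2, lay near or above 0.

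The library 24 h T3 replicate 1 stood apart, with a chi-square of 30.5 and 38.4 per degree of freedom against the other T3 libraries, which were at 2.72 against each other. When it was left out together with 6 h CHX replicate 4, 13 genes were called lower, and in a fit of the 2 groups compared alone 2 were. Leaving out T3 replicate 3, the library on lane 7, left 6 called in lane 6 alone. Among 24 h controls, replicates 2 and 4 stood apart in some markers of other cells, of which 3 were picked after their values were seen. Gpr17, of the oligodendrocyte lineage, was at 6.43, 13.9 and 16.5 CPM with T3 and at 3.27, 34.3, 2.66 and 42.4 CPM in controls. Sox10, of the same lineage, was at 14.2, 19.1 and 21.1 CPM with T3 and 13.6, 39.5, 9.20 and 43.1 CPM in controls, and Dcn, of meningeal fibroblasts, at 1.39, 1.08 and 0.884 CPM with T3 and 1.07, 11.5, 1.38 and 6.91 CPM in controls. Without control replicates 2 and 4, 6 of the 39 genes were called lower, Rrm1 and Lig1 no longer among them, and calls over all genes came to 642, against 1140 with every library. Astrocyte markers summed to 8788 to 9777 CPM in 24 h T3 libraries and 9053 to 10877 CPM in 24 h controls, with 3 of 10 called lower. Microglia markers summed to 49.1 to 57.9 CPM in 24 h T3 libraries and 43.9 to 93.1 CPM in 24 h controls, with 0 of 10 called, and oligodendrocyte lineage markers to 847 to 936 CPM with T3 and 822 to 1138 CPM in controls, with 1 of 9 called lower. Neuron markers summed to 443 to 563 CPM with T3 and 529 to 581 CPM in controls (0 of 8 called), and vascular and meningeal markers to 272 to 315 CPM with T3 and 318 to 387 CPM in controls (1 of 6 called lower). Only the vascular and meningeal sums did not overlap, no defining marker of these lists had a mean of 0 in either group, and their part in the result was not tested.

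**Figure D1:**
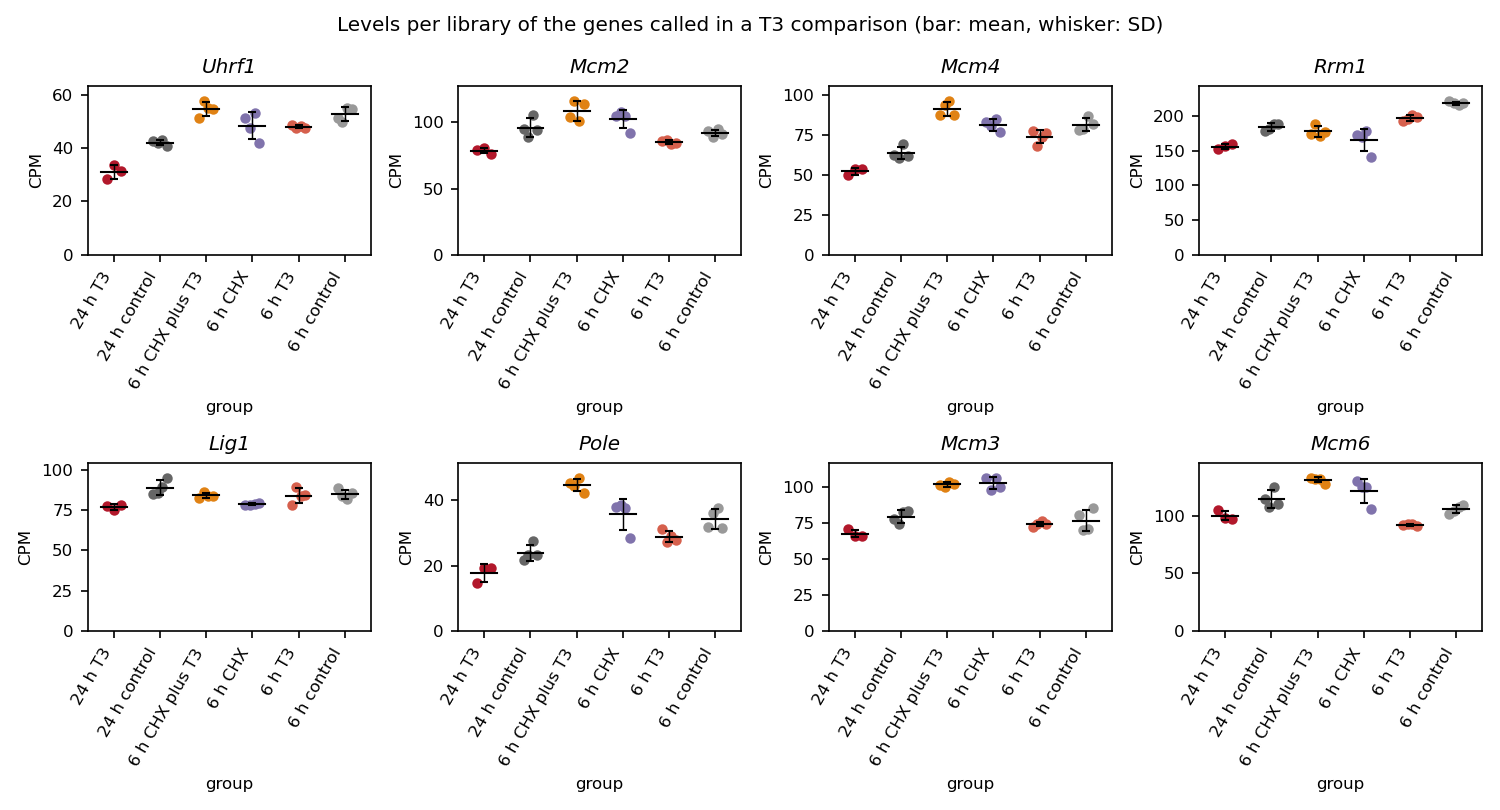
CPM of the 8 genes called in a T3 comparison, by group, with 1 point per library, a bar at the mean and a whisker of 1 SD. The first pair of columns in each panel sets 24 h T3 beside 24 h control, where Uhrf1 lies at 28.4 to 33.6 CPM in T3 libraries and 40.9 to 43.0 CPM in control libraries.

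Genes of the same phases outside the list were looked at from lists chosen by function. Of 35 other replication factors, 2 fell at 24 h (Timeless, a fork protection factor, by 0.39 ± 0.10 log2, and Ticrr, a helicase activator, by 0.42 ± 0.12 log2) and 0 rose. Of 30 other G1/S and S phase targets, 9 fell and 0 rose, among them Brca1 by 0.47 ± 0.10 log2, Rad51ap1 by 0.50 ± 0.11 log2, Dnmt1 by 0.25 ± 0.06 log2 and the S phase cyclin Ccna2 by 0.35 ± 0.09 log2. Of 30 mitosis and G2/M genes, 12 fell and 0 rose, led by Kif23 at −0.51 ± 0.10 log2. Of 12 D-type cyclin and CDK inhibitor genes, 2 fell, Ccnd2 by 0.53 ± 0.09 log2 and Ccnd1 by 0.41 ± 0.09 log2. The median over the mitosis list was −0.30 log2, against −0.17 log2 over the 39 genes. It was −0.23 log2 over the other G1/S and S phase targets. The other replication factors moved less, with a median of −0.06 log2, and the D-type cyclin and CDK inhibitor list had −0.0033 log2.

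At 6 h, 1 of the 39 genes was called with T3. Mcm6 fell and 0 genes rose, where 1.16% of all genes were called lower and 2.61% higher (3.77% in all). Mcm6 (ENSMUSG00000026355, GRCm38 chromosome 1, 128331590 to 128359664), a subunit of the helicase ring, was at 92.0, 92.7, 92.8 and 91.3 CPM in 6 h T3 libraries, against 102, 104, 108 and 109 CPM in 6 h controls. The T3 libraries lay close together and all below the controls. Its fold change was −0.20 ± 0.06 log2 (adjusted p = 0.0467, edgeR), with adjusted p from 0.00541 to 0.132 over 18 alternatives. Dropping any 1 of the 8 libraries ended the call, and so did omitting the filter on low counts, with adjusted p = 0.106.

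The median over the 39 genes at 6 h was −0.13 log2, against 0.00283 over all genes, with 34 values below 0. With Mcm6 included, 12 of the 39 had an unadjusted p under 0.05, as did 2681 of the 16087 genes tested. Pole2, a subunit of polymerase epsilon, had the largest value at −0.45 ± 0.15 log2 (adjusted p = 0.0883), followed by Gins2 at −0.29 ± 0.14 log2 (adjusted p = 0.294), in edgeR, and Orc1 the highest at 0.23 ± 0.19 log2. The 4 G1/S regulators ran from −0.11 to 0.19 log2 with 0 called, among them Ccne1, cyclin E1, at 0.00 ± 0.12 log2 and E2f1 at 0.00 ± 0.11 log2. Exons of Gins2 share 67.3% of their bases with Gse1 on the other strand, so its counts are uncertain. Summed levels were 1463 to 1527 CPM in 6 h T3 libraries and 1599 to 1650 CPM in 6 h controls and did not overlap. Of 30 mitosis and G2/M genes, 9 fell and 0 rose at 6 h, including Ccnb2 by 0.47 ± 0.11 log2 and Aurkb by 0.36 ± 0.09 log2. Of the other replication factors 0 of 35 were called, and of the other G1/S and S phase targets 1 of 30, Ccna2, which fell by 0.29 ± 0.08 log2. Microglia markers summed to 57.1 to 65.0 CPM in 6 h T3 libraries and 44.9 to 55.8 CPM in 6 h controls, without overlap and with 0 of 10 called. Astrocyte markers summed to 11085 to 11387 CPM with T3 and 9827 to 10598 CPM in controls, also without overlap, with 1 of 10 called lower. Neuron markers (512 to 579 CPM with T3 and 492 to 535 CPM in controls, 1 of 8 called higher), oligodendrocyte lineage markers (876 to 964 CPM with T3 and 903 to 1019 CPM in controls, 1 of 9 called lower) and vascular and meningeal markers (291 to 401 CPM with T3 and 290.4 to 481 CPM in controls, 0 of 6 called) overlapped. The part of other cells in the result was not tested.

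The T3 effect at 24 h was set against that at 6 h in 1 contrast. Of the 39 genes, 0 were called in either direction by edgeR and 0 by DESeq2, where 0.839% of all genes were called in edgeR. An unadjusted p under 0.05 in edgeR was reached by 6 of the 39 and by 2510 of the 16087 genes tested. That count is near this background and is no result about them. The difference, 24 h minus 6 h, was −0.30 ± 0.10 log2 for Uhrf1 (adjusted p = 0.138), −0.19 ± 0.07 log2 for Lig1 (adjusted p = 0.191) and 0.01 ± 0.08 log2 for Mcm6 (adjusted p = 0.972) in edgeR. These misses do not show that the effects were equal at 24 h and 6 h.

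In the presence of CHX, no gene of the 39 passed for T3 at 6 h. The count was 0 higher and 0 lower in edgeR, where 1.29% of all genes were called, and DESeq2 called 1. In edgeR 8 of the 39 had an unadjusted p under 0.05, as did 2027 of the 16087 genes tested. The median was 0.08 log2, against −0.00576 over all genes, and 25 of 39 values were above 0. Pole was at 45.3, 44.5, 46.9 and 42.2 CPM in 6 h CHX plus T3 libraries, against 38.1, 38.5, 37.7 and 28.6 CPM in 6 h CHX libraries. The groups did not overlap, and CHX replicate 4 was far below the rest. Its fold change was 0.32 ± 0.09 log2 (adjusted p = 0.108, edgeR). Without CHX replicate 4 the median over the 39 genes was 0.03 log2. The CHX plus T3 libraries were all on lane 6 and 3 of the 4 CHX libraries on lane 5. With lane as a covariate 7 genes were called higher, a fit in which CHX replicate 4 alone ties lane 5 to lane 6.

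The T3 effect with CHX minus that without CHX was above 0 for 34 of 39 genes, with a median of 0.15 log2 against −0.00486 over all genes. One of them passed, Pole, where 0.584% of all genes were called higher and 0.634% lower. Pole was at 31.1, 27.4, 29.2 and 27.8 CPM in 6 h T3 libraries, against 32.0, 36.1, 37.6 and 31.4 CPM in 6 h control libraries. The T3 libraries lay below all controls, replicate 1 only just, while with CHX the T3 libraries were above. The difference of effects was 0.57 ± 0.14 log2 (adjusted p = 0.0384, edgeR), with adjusted p from 0.000969 to 0.0896 over the alternatives, and the call ended in 11 of 26. Without CHX replicate 4 it was 0.48 ± 0.12 log2 (adjusted p = 0.0896, edgeR). Helicase genes came near, with Mcm6 at 0.31 ± 0.08 log2 (adjusted p = 0.0505) and Mcm4 at 0.30 ± 0.08 log2 (adjusted p = 0.0566). Of 30 mitosis and G2/M genes, 14 had a difference called above 0, such as Ccnb2 at 0.74 ± 0.16 log2, and 0 below. Apart from CHX replicate 4, only the CHX plus T3 libraries of these groups were on lane 6. Lane and the difference of effects therefore cannot be told apart, for Pole, the helicase genes or the mitosis list.

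**Figure D2:**
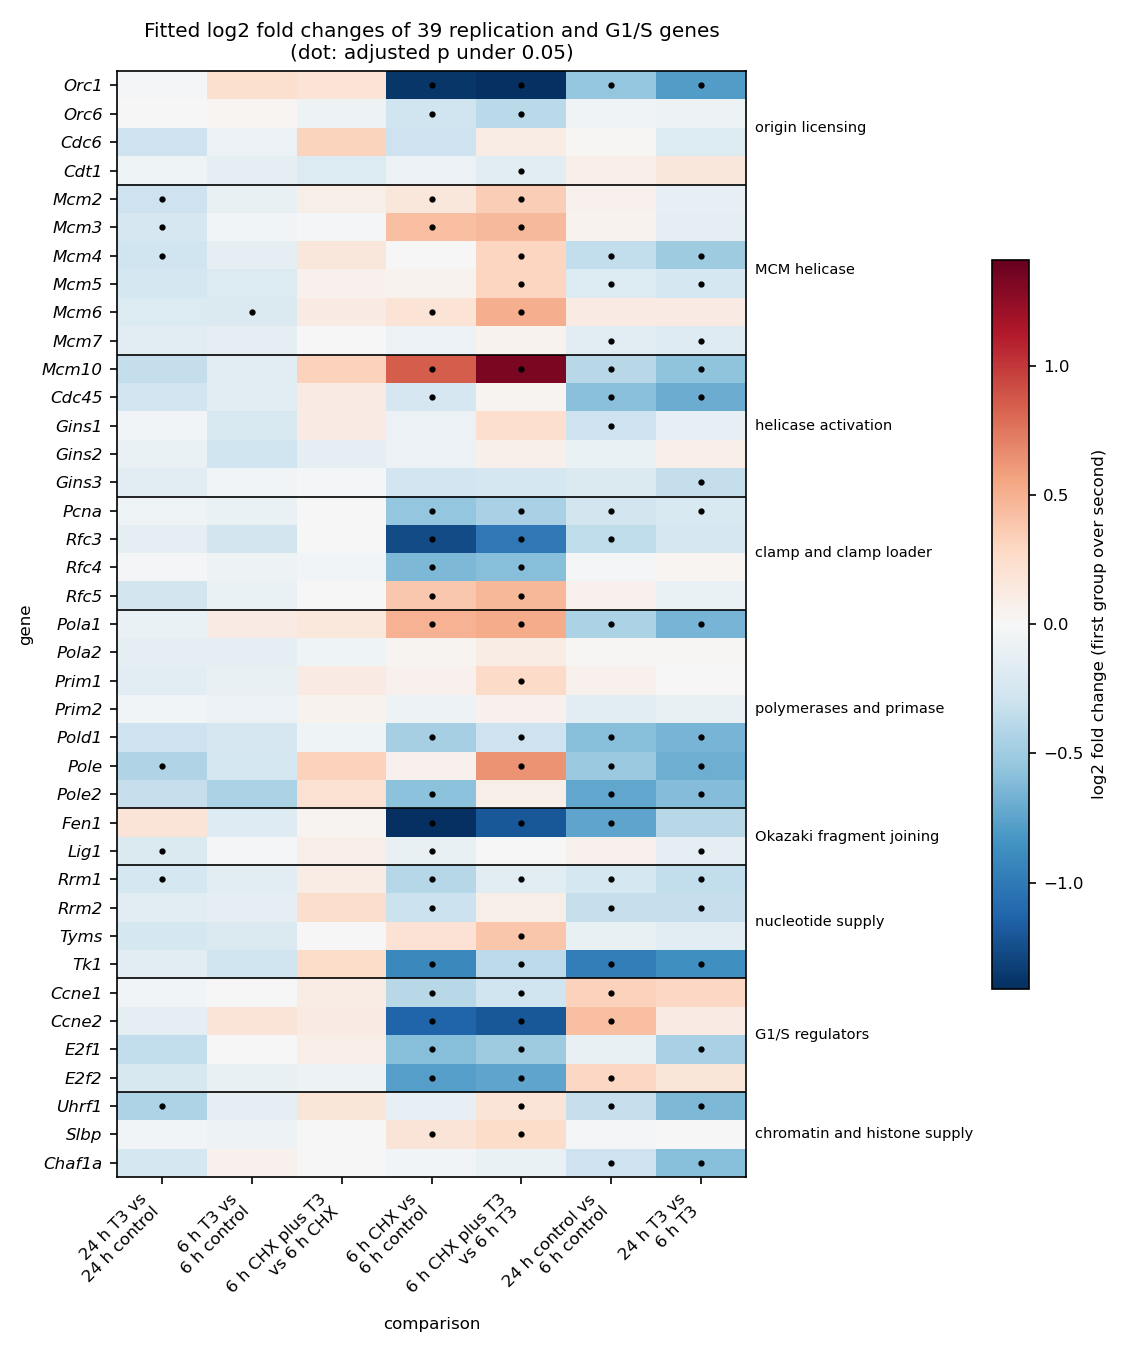
Fitted log2 fold changes of the 39 genes (down the page, by role) in 7 comparisons (across), from blue for lower to red for higher in the group named first, with a dot at an adjusted p under 0.05 in edgeR. The 3 T3 columns on the left are pale, with 7 dots at 24 h, 1 at 6 h and 0 with CHX, while the CHX and time columns hold most dots.

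Genes were called in both directions with CHX. Of the 39, 17 fell and 7 rose at 6 h of CHX against 6 h control, where 30.6% of all genes were called lower and 37.0% higher. Both directions together, 67.5% of all genes were called with CHX, so the number called among the 39 is near that background and is no result about them. Roles were not tested against other genes, and their counts are given as a description. The median was −0.11 log2, against 0.06 log2 over all genes. All 4 G1/S regulators fell, all 4 clamp and clamp loader genes were called (3 lower and 1 higher), both Okazaki fragment genes fell (Lig1 by only 0.11 ± 0.05 log2, adjusted p = 0.0488 in edgeR), and of 6 MCM helicase genes 3 rose and 0 fell.

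Among G1/S regulators, Ccne2 (ENSMUSG00000028212, GRCm38 chromosome 4, 11191351 to 11204779), cyclin E2, was at 3.62, 4.31, 3.27 and 3.24 CPM in 6 h CHX libraries, against 8.35, 8.47, 6.81 and 8.03 CPM in 6 h controls. The groups were far apart in all libraries. It fell by 1.13 ± 0.13 log2 (adjusted p = 3.08e-08, edgeR). The transcription factor genes E2f2 and E2f1 fell by 0.78 ± 0.11 and 0.60 ± 0.11 log2, and Ccne1 by 0.40 ± 0.12 log2. Exons of Ccne2 share 17.4% of their bases with Ints8 on the other strand, and the kit marks no strand. Summed, the 4 genes were at 30.2 to 37.1 CPM with CHX and 46.4 to 57.1 CPM in controls.

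Upstream of them, 2 of the 3 D-type cyclin genes fell with CHX, Ccnd2 by 3.45 ± 0.10 log2 and Ccnd1 by 2.31 ± 0.09 log2, while Ccnd3 was at 0.08 ± 0.07 log2 without passing. Of the 12 D-type cyclin and CDK inhibitor genes, 4 fell and 3 rose with CHX. Of 30 other G1/S and S phase targets, 15 fell and 8 rose, led by Skp2, the F-box protein that marks p27 for destruction, which fell by 1.73 ± 0.08 log2. Of 30 mitosis and G2/M genes, 24 fell and 0 rose, among them Plk1 by 1.25 ± 0.10 log2.

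In origin licensing, Orc1, the largest subunit of the origin recognition complex, was at 0.645, 1.18, 0.901 and 1.13 CPM with CHX, against 2.17, 2.33, 2.62 and 2.95 CPM in 6 h controls. Every CHX library was below every control, at low counts throughout. It fell by 1.37 ± 0.22 log2 (adjusted p = 6.9e-06, edgeR). Orc6 fell by 0.29 ± 0.07 log2, and Cdc6 and Cdt1 had −0.29 ± 0.16 and −0.09 ± 0.06 log2 without passing. In contrast, of 35 other replication factors 17 rose and 11 fell, and Orc4 and Orc5, other subunits of the same complex, rose by 1.38 ± 0.07 and 1.22 ± 0.07 log2.

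For the helicase, Mcm3 was at 106, 97.3, 106 and 100 CPM with CHX, against 80.4, 70.0, 70.3 and 84.9 CPM in 6 h controls. All CHX libraries were above all controls. It rose by 0.42 ± 0.06 log2 (adjusted p = 5.27e-07, edgeR), Mcm6 by 0.20 ± 0.06 and Mcm2 by 0.16 ± 0.06 log2, while Mcm4 was at 0.00 ± 0.06 log2. Mcm10 (ENSMUSG00000026669, GRCm38 chromosome 2, 4989714 to 5012791), which helps to start unwinding, was at 28.2, 29.1, 31.6 and 21.6 CPM with CHX, against 14.6, 15.6, 16.6 and 14.2 CPM in controls. Even the lowest CHX library, replicate 4, was above the controls. It rose by 0.85 ± 0.12 log2 (adjusted p = 4.97e-07, edgeR), the largest rise among the 39 genes. Its partner Cdc45 fell by 0.23 ± 0.09 log2, and the 3 GINS genes did not pass, at −0.08 to −0.27 log2.

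The clamp loader split. Rfc3 (ENSMUSG00000033970, GRCm38 chromosome 5, 151642756 to 151651242), a small loader subunit, was at 13.3, 12.7, 14.1 and 11.7 CPM with CHX, against 29.6, 31.4, 29.1 and 34.1 CPM in 6 h controls. No CHX library came near a control. It fell by 1.26 ± 0.10 log2 (adjusted p = 4.97e-11, edgeR). Rfc4 fell by 0.63 ± 0.13 log2 and Pcna by 0.55 ± 0.07 log2, whereas Rfc5 rose by 0.38 ± 0.12 log2. Exons of Rfc4 and Rfc5 share 12.7% and 10.7% of their bases with Eif4a2 and Wsb2 on the other strand.

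Polymerase genes went both ways. Pold1, the catalytic subunit of polymerase delta, was at 32.7, 31.3, 32.0 and 25.6 CPM with CHX, against 40.4, 41.8, 48.1 and 37.4 CPM in 6 h controls. The groups did not overlap. It fell by 0.47 ± 0.10 log2 (adjusted p = 0.000212, edgeR) and Pole2 by 0.58 ± 0.15 log2, while Pola1, the catalytic subunit of the polymerase that makes primers with primase, rose by 0.49 ± 0.11 log2. The primase genes Prim1 and Prim2, with Pola2 and Pole, stayed between −0.07 and 0.06 log2 and did not pass.

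Fen1, the flap nuclease of Okazaki fragments, was at 1.98, 1.29, 1.13 and 1.40 CPM with CHX, against 3.71, 3.46, 4.02 and 4.47 CPM in 6 h controls. All CHX libraries were below all controls, and it fell by 1.41 ± 0.20 log2 (adjusted p = 6.67e-07, edgeR). Of its exonic bases, 78.8% lie under Gm10143 on the other strand, so its counts are uncertain. Tk1, the thymidine salvage kinase, was at 10.5, 11.0, 10.8 and 8.69 CPM with CHX, against 20.2, 19.4, 19.2 and 18.1 CPM in controls. These groups were also clearly apart, with a fall of 0.91 ± 0.11 log2 (adjusted p = 4.2e-08, edgeR). Rrm1 and Rrm2 fell by 0.40 ± 0.06 and 0.31 ± 0.08 log2, whereas Tyms, thymidylate synthase, was at 0.20 ± 0.10 log2 without passing. Slbp, which binds the stem-loop of histone messages, was at 47.4, 44.0, 48.6 and 53.3 CPM with CHX, against 45.4, 42.1, 41.5 and 41.7 CPM in controls. Its groups overlapped, and it rose by 0.18 ± 0.06 log2 (adjusted p = 0.0155, edgeR), with adjusted p up to 0.187 over 18 alternatives, 7 of which ended the call. Uhrf1 and Chaf1a, a subunit of the histone chaperone CAF-1, were at −0.12 ± 0.06 and −0.04 ± 0.09 log2, and 52.5% of the exonic bases of Chaf1a lie under Ubxn6 on the other strand.

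Genes with and without the E2F letters did not part cleanly under CHX. Of the 15 with a match 6 fell and 3 rose, and of the 18 without one 10 fell and 4 rose. With T3 at 24 h, 3 of 15 and 2 of 18 fell. Mcm4 and Pole, also called lower at 24 h, had no window and are in neither count. Rfc3 and Mcm3, both with 2 matches in the windows shown, moved in opposite directions. Mcm10 rose, with no match in a window whose edge cuts off the last letter of TTTGGCGC.

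**Figure D3:**
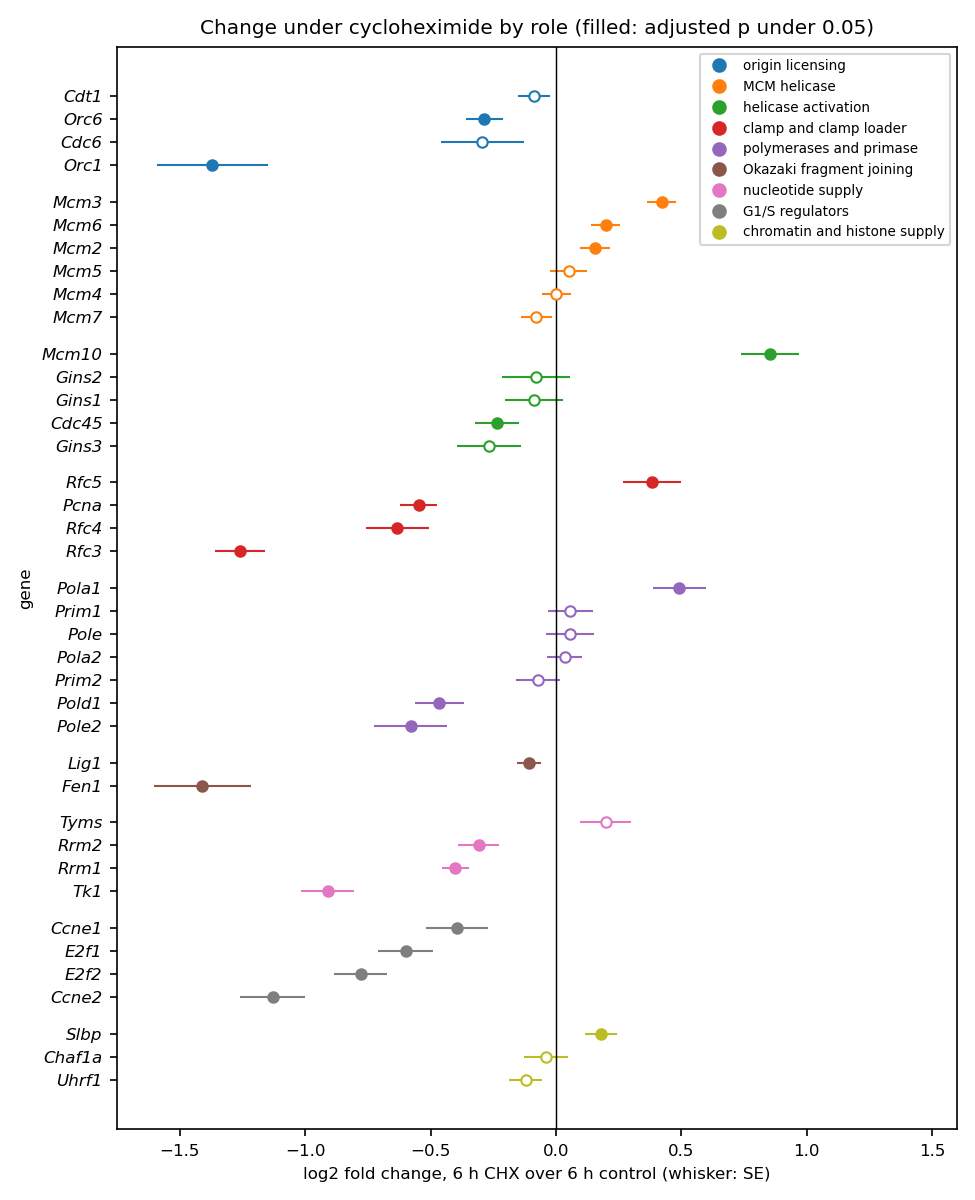
Log2 fold change of each of the 39 genes, 6 h CHX over 6 h control, by role, with whiskers of 1 SE and filled points at an adjusted p under 0.05 in edgeR. G1/S regulators lie left of 0 throughout, Mcm10 is farthest right at 0.85 log2 and Fen1 farthest left at −1.41 log2.

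Without CHX replicate 4, when all CHX and control libraries came from lane 5, 15 genes fell and 6 rose. Of the CHX calls, that of Lig1 ended in 13 of 18 alternatives, of Slbp in 7, of Mcm2 in 6, of Cdc45 in 5 and of Mcm6 in 1, and the others held in all 18. Marker sums moved with CHX as well. Astrocyte markers summed to 7599 to 9180 CPM in 6 h CHX libraries and 9827 to 10598 CPM in 6 h controls, with 7 of 10 called lower. Oligodendrocyte lineage markers summed to 554 to 625 CPM with CHX and 903 to 1019 CPM in controls, with 4 of 9 called lower and 2 higher. Microglia markers summed to 31.9 to 46.4 CPM with CHX and 44.9 to 55.8 CPM in controls, with 3 of 10 called lower, and neuron markers to 438 to 480.4 CPM with CHX and 492 to 535 CPM in controls, with 1 of 8 called lower. Vascular and meningeal markers summed to 234 to 373 CPM with CHX and 290.4 to 481 CPM in controls, with 1 of 6 called higher and 1 lower. Among its endothelial genes Kdr rose by 1.85 ± 0.13 log2, while Cldn5, at 0 counts in every CHX library and 1 to 3 counts in 6 h controls, and Pecam1, at 5 to 7 counts with CHX and 1 to 6 counts in controls, were too low to test. The sums of astrocyte, oligodendrocyte lineage and neuron markers did not overlap between the groups, and the part of these markers in the result was not tested. CHX was also set against no CHX in the presence of T3, between libraries that also entered the T3 comparisons above. In 6 h CHX plus T3 libraries against 6 h T3 libraries, 14 genes fell and 13 rose, where 31.0% and 36.3% of all genes did. All 4 G1/S regulators fell there too, Ccne2 by 1.20 ± 0.13 log2, while 5 of 6 MCM helicase genes rose, Mcm6 by 0.51 ± 0.06 log2. Mcm10 rose by 1.33 ± 0.12 log2 and Pole by 0.63 ± 0.10 log2, and Rfc3 fell by 1.01 ± 0.10 log2. These CHX plus T3 libraries were all on lane 6 and the T3 libraries all on lane 5, so lane and CHX cannot be told apart within them.

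Between 24 h control and 6 h control, which differ in time and in lane, 19 of the 39 genes fell and 3 rose, where 28.4% and 28.2% of all genes did (56.6% in all). The median was −0.16 log2, against −0.00171 over all genes. Both directions together, the number called among the 39 is near that background and is no result about them. As a description, falls were spread over every role but the G1/S regulators, of which 3 of 4 rose. All 30 mitosis and G2/M genes fell, with a median of −1.05 log2. Of the other replication factors 11 of 35 fell and 9 rose, with Dbf4, which activates the Cdc7 kinase, lower by 0.95 ± 0.08 log2.

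Tk1 was at 10.8, 8.32, 10.5 and 9.65 CPM in 24 h control libraries, against 20.2, 19.4, 19.2 and 18.1 CPM in 6 h control libraries. The groups were far apart, with a fall of 0.97 ± 0.11 log2 (adjusted p = 4.24e-08, edgeR). Cdc45 was at 12.8, 13.1, 13.9 and 14.9 CPM at 24 h, against 23.3, 18.9, 18.9 and 21.5 CPM at 6 h. It did not overlap between the times and fell by 0.59 ± 0.09 log2 (adjusted p = 5.05e-06, edgeR). Pold1 was at 29.9, 24.1, 29.5 and 27.8 CPM at 24 h, against 40.4, 41.8, 48.1 and 37.4 CPM at 6 h. All its 24 h libraries were lower, by 0.59 ± 0.10 log2 (adjusted p = 2.02e-05, edgeR).

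Mcm4 was at 62.5, 60.5, 69.3 and 62.0 CPM in 24 h control libraries, against 77.8, 78.6, 86.9 and 81.5 CPM in 6 h control libraries. No 24 h library reached the 6 h range, and it fell by 0.35 ± 0.06 log2 (adjusted p = 1.2e-05, edgeR). Uhrf1 was at 42.8, 42.0, 43.0 and 40.9 CPM at 24 h, against 51.5, 49.9, 55.3 and 54.8 CPM at 6 h. The times did not overlap, and it fell by 0.33 ± 0.07 log2 (adjusted p = 0.00016, edgeR). Rfc3, at 24.9, 24.0, 25.8 and 21.7 CPM at 24 h against 29.6, 31.4, 29.1 and 34.1 CPM at 6 h, fell by 0.36 ± 0.10 log2 (adjusted p = 0.00258, edgeR). Its times were separate as well.

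The low-level genes followed. Fen1 was at 2.58, 1.95, 2.61 and 2.17 CPM in 24 h control libraries, against 3.71, 3.46, 4.02 and 4.47 CPM in 6 h control libraries, and fell by 0.75 ± 0.19 log2 (adjusted p = 0.00138, edgeR). Orc1 was at 1.32, 1.51, 1.97 and 2.05 CPM at 24 h, against 2.17, 2.33, 2.62 and 2.95 CPM at 6 h, and fell by 0.54 ± 0.21 log2 (adjusted p = 0.0287, edgeR). Neither overlapped between the times. Ccne2 went the other way, at 10.6, 11.1, 11.5 and 9.13 CPM at 24 h against 8.35, 8.47, 6.81 and 8.03 CPM at 6 h. All 24 h libraries were higher, by 0.42 ± 0.12 log2 (adjusted p = 0.00343, edgeR), and Ccne1 and E2f2 rose by 0.32 ± 0.12 and 0.29 ± 0.10 log2.

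The other genes that fell between the controls did so by 0.16 log2 (Mcm7) to 0.73 log2 (Pole2). They included the polymerase genes Pole (0.52 ± 0.10 log2) and Pola1 (0.45 ± 0.11 log2), Mcm10 (0.39 ± 0.12 log2), both ribonucleotide reductase genes, Pcna, Mcm5, Gins1 and Chaf1a. The 17 genes that did not pass lay between −0.21 log2 (Gins3) and 0.11 log2 (Mcm6).

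In T3-treated cells, 24 h T3 against 6 h T3, 19 genes fell and 0 rose, where 28.2% and 29.3% of all genes did (57.6% in all). Uhrf1 fell by 0.63 ± 0.07 log2, Mcm4 by 0.50 ± 0.06 log2 and Tk1 by 0.86 ± 0.12 log2, while Ccne2 was at 0.11 ± 0.12 log2 without passing. All 6 h libraries of these time comparisons were on lane 5 and all 24 h libraries on lane 6 or 7. With lane as a covariate, a fit that rests on CHX replicate 4 for the step between lanes 5 and 6, 2 genes fell and 2 rose between the controls, so time and lane cannot be told apart here. Comparisons above share libraries: 6 h controls enter T3 at 6 h, CHX alone and the controls' time step, 24 h controls enter T3 at 24 h and the same time step, and 24 h T3 and 6 h T3 libraries likewise enter 2 comparisons or more.

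**Figure D4:**
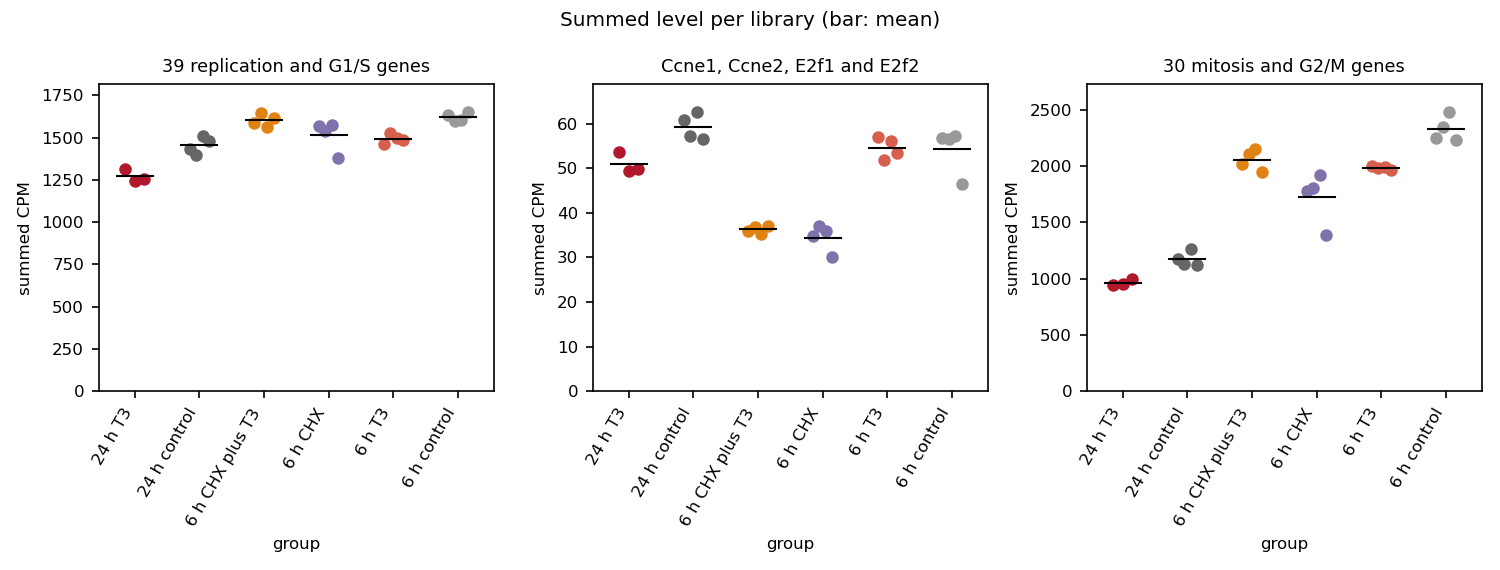
Summed CPM per library, by group, for the 39 genes, for Ccne1, Ccne2, E2f1 and E2f2 together, and for 30 mitosis and G2/M genes, with a bar at the mean. The 39 genes are lowest in 24 h T3 libraries (1242 to 1315 CPM), the 4 regulators lowest in both CHX groups, and the mitosis genes lowest at 24 h, at 946.5 to 997 CPM with T3 and 1118 to 1267 CPM in controls.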

How the data were processed

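RNA from 23 libraries was sequenced as single 50 nt reads after library preparation from 200 ng of total RNA with a kit that marks no strand, per the labels' protocols. Build GRCm38 and, in no order, HTSeq, TopHat, Bowtie, edgeR, FastQC and bcl2fastq appear in the submitters' processing notes. For tool versions, the mode of counting and the annotation used upstream, the sources used here hold no statement. The authors deposited 1 file per library with raw read counts by Ensembl gene, which were used unchanged. The 5 closing lines of each file that name no gene stayed out of library sizes and tests. Among them, alignments that were not unique made up 30.7 to 42.3% of a file's counts, reads without a feature 3.75 to 5.81% and ambiguous reads 1.40 to 1.71%, so genes with near-identical copies are undercounted. Symbols came from GENCODE M21 (36429 of 38293 identifiers matched), and exon overlaps with other genes from the same annotation.

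Genes were filtered with filterByExpr at its minimum count of 10, which left 16087, and fitted together for all 23 libraries in edgeR 4.0.16 (R 4.3.3) with TMM scaling and 1 mean per group, leaving 17 residual degrees of freedom and a biological coefficient of variation of 8.57%. Quasi-likelihood F tests were adjusted by Benjamini-Hochberg over all genes tested and called at an adjusted p under 0.05. The SE is the size of the log2 change divided by the square root of F. Libraries held 13843040 to 22997873 gene counts, and the SE beside each change gives its precision. The scripts were tested on simulated data with known changes. No pair of replicates agreed within sampling noise.

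The 39 genes, their roles and all gene lists were chosen with earlier results of these data known. Values of every library are given for genes called with T3, and for CHX and time for the gene with the smallest p in each of the 9 roles. Of other lists up to 4 genes with the smallest p were eligible. Alternatives were DESeq2 1.42.0, RLE factors, no filter, replicate blocks, lane, a length and GC trend, only the groups compared, and leaving out libraries. Leaving out 24 h control replicates 2 and 4 together was added after seeing the data.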

Additional observations from a re-analysis of the deposited data

Results flagged for a closer look

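In 11 of 200 sets of 4 libraries (a gene or sum in a group), 1 library stood farther from the rest than Dixon's 95% limit allows, where chance gives about 1 in 20. In 6 h CHX replicate 4, Mcm5 was at 58.3 CPM against 71.2 to 72.6 CPM in the other 3, Pole at 28.6 CPM against 37.7 to 38.5 CPM, and the 39 genes summed to 1377 CPM against 1540 to 1573 CPM. In 6 h CHX plus T3 replicate 3, Mcm7 was at 56.6 CPM against 64.0 to 65.2 CPM and Gins2 at 12.3 CPM against 17.7 to 18.2 CPM. E2f2 was at 13.0 CPM in 24 h control replicate 1, against 10.4 to 10.6 CPM. Slbp was at 41.5 CPM in 6 h T3 replicate 2, against 40.2 to 40.4 CPM.

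In 6 h controls, Rfc4 was at 16.1 CPM in replicate 4 against 12.8 to 13.0 CPM, Pola1 at 33.0 CPM in replicate 2 against 36.3 to 36.9 CPM, Rrm2 at 103 CPM in replicate 3 against 111 to 112 CPM, and Slbp at 45.4 CPM in replicate 1 against 41.5 to 42.1 CPM. The T3 effect on Pole differed with and without CHX by 0.57 log2 (adjusted p = 0.0384, edgeR), the difference itself being tested, and this call was lost in 11 of 26 alternatives.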

How the results depend on the processing

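Directions of called genes held under every alternative except lane as a covariate. There 11 calls changed sign, some of them of the same gene in different comparisons, and so did Cdc6, which was called only in that fit. They were CHX with T3 for Pold1 (0.0368) and Rrm1 (0.152), the controls' time step for Mcm5 (0.111), Mcm7 (0.0162), Mcm10 (0.063), Rrm1 (0.0552) and Rrm2 (0.158), and the time step with T3 for Mcm5 (0.112), Mcm7 (0.0131), Cdc6 (0.796), Rrm2 (0.181) and E2f1 (0.0258), all log2. The lane fit rests on 1 library for lanes 5 and 6, and the cause was not tested. Counts it moved were 2 lower for T3 at 6 h, 7 higher for T3 with CHX, 7 lower for CHX with T3, 2 lower for the controls' time step, 5 lower and 2 higher for the time step with T3, and 12 higher for the CHX difference.

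Other moved counts were, for T3 at 6 h, 0 lower without the filter, 3 after removal of a length and GC trend, and 4 when the 2 libraries in doubt were left out. At 24 h they were 13 lower without those 2 libraries and 2 with only the groups compared. T3 with CHX had 1 higher by DESeq2. CHX alone had 4 higher with only the groups compared. The time step with T3 had 1 higher after removal of that trend and 2 when 24 h control replicates 2 and 4 were both left out. The CHX difference had 7 higher by DESeq2, 2 with RLE factors, 7 with the trend removed, 4 without those controls and 4 with only the groups compared.

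The labels do not say whether replicate numbers or letters pair libraries. Deviations of same-numbered libraries correlated at r from −0.285 to 0.131 and of same-lettered ones at −0.261 to 0.199. In no comparison did every pair exceed 0.1, although all 8 pairs of CHX alone and T3 with CHX were above 0, so no pairing was used. With the replicate number as a block, T3 with CHX had 1 higher and the CHX difference 3, with the letter block also 3, and T3 at 24 h had 9 and 7 lower.

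Leaving out 1 library at a time gave 0 to 2 lower for T3 at 6 h, 5 to 10 lower at 24 h, 6 to 7 higher and 15 to 17 lower for CHX alone, 13 to 14 higher and 11 to 13 lower for CHX with T3, 2 to 3 higher and 15 to 19 lower for the controls' time step, 0 to 2 higher and 15 to 22 lower for that with T3, and 0 to 5 higher for the CHX difference. Depth limits Orc1 and Fen1 most, at 11 counts at the least for Orc1.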

Other observations

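Among 12 D-type cyclin and CDK inhibitor genes, 6 fell and 1 rose in 24 h control libraries against 6 h control libraries. The gene that rose was Cdkn1c, the inhibitor p57, by 1.11 ± 0.11 log2, and in T3-treated cells it rose by 1.65 ± 0.12 log2 over the same span. Its T3 effect at 24 h was 0.30 ± 0.11 log2 (adjusted p = 0.119, edgeR), and the T3 effect at 24 h minus 6 h was 0.55 ± 0.16 log2 (adjusted p = 0.11, edgeR). Ccnd1 fell by 1.45 ± 0.09 log2 between the controls. Among other G1/S and S phase targets, E2f7, a repressor of the E2F family, rose by 1.35 ± 0.12 log2 between the controls, while the kinase gene Cdk2 fell by 0.76 ± 0.05 log2. Time and lane cannot be told apart in these steps either.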
